A study of Homo sapiens with 16 samples.

Results

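The 9 mature 5p miRNAs of the let-7 and miR-98 family (let-7a, b, c, d, e, f, g, i and miR-98) were chosen by name, as the 5p entries of that family among the 915 entries of the miRNA table. They were measured by small RNA sequencing in 16 libraries that form 8 groups of 2. PC3 is a human prostate cancer cell line and MDA-MB-231 (written MDA-231 in the labels) is a human breast cancer cell line. Both are labelled wild type, untreated and epithelial, and each is represented by its cells and by extracellular vesicles (EVs) collected from serum-free conditioned medium with 3 isolation methods. Next-gen ATPS partitions EVs into the dextran-rich phase of a polyethylene glycol and dextran mixture, UC is ultracentrifugation (these libraries carry the letters VC in their labels), and exoRNeasy is a Qiagen spin column kit that takes up EVs and yields their RNA directly. The labels do not state that replicates of a group were grown separately, and p-values therefore reflect how far replicate libraries lay apart, a spread that can be purely technical.

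The let-7 miRNAs are among the most conserved of animal miRNAs. The 5p strand of each hairpin is the guide loaded into Argonaute, and the bases 2 to 8 from its 5′ end, the seed, pair with messenger RNAs such as those of the RAS genes, HMGA2, MYC and LIN28. The RNA-binding proteins LIN28A and LIN28B bind let-7 precursors and block their processing, so that the miRNAs rise as cells differentiate, and let-7 is regarded as a tumour suppressor family in many carcinomas. Members differ mostly outside the seed.

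The mature sequences are shown because they show how little separates the members. RefSeq (GRCh38.p14) gave a sequence for 9 of 9, each of 22 bases, and the capitals mark the seed.

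hsa-let-7a-5p: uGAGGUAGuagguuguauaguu
hsa-let-7b-5p: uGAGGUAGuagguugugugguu
hsa-let-7c-5p: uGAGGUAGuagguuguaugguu
hsa-let-7d-5p: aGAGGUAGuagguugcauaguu
hsa-let-7e-5p: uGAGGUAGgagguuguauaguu
hsa-let-7f-5p: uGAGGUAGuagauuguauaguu
hsa-let-7g-5p: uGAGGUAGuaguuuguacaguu
hsa-let-7i-5p: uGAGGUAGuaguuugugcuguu
hsa-miR-98-5p: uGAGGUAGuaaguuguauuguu

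All 9 share the seed. Against let-7a, with positions counted from 1 at the 5′ end and the base of let-7a written first, let-7c carried A19G, let-7e U9G and let-7f G12A. Let-7b carried A17G and A19G, let-7d U1A and U16C, let-7g G12U and U18C, and miR-98 G11A and A19U. Let-7i was the most distant from let-7a, with G12U, A17G, U18C and A19U. Of the 36 pairs of members, 4 differed at a single base (let-7a with let-7c, let-7e and let-7f, and let-7b with let-7c) and 10 at 2 bases. A read with 1 error at such a base can thus be assigned to a neighbour. The split between let-7a, b, c, e and f in particular is uncertain. The only other mature names with this seed in the reference, miR-4458 and miR-4500, had no entry in the table.

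The family comes from 12 hairpin genes in the human genome (GRCh38, 1-based). Let-7a and let-7f are encoded more than once. MIRLET7A1, MIRLET7F1 and MIRLET7D lie together at chr9:94175957-94176036, chr9:94176347-94176433 and chr9:94178834-94178920, in exons of the lncRNA MIRLET7A1HG. MIRLET7A3 at chr22:46112749-46112822 and MIRLET7B at chr22:46113686-46113768 lie in exons of MIRLET7BHG, 864 bases apart. MIRLET7F2 at chrX:53557192-53557274 and MIR98 at chrX:53556223-53556341 lie in an intron of HUWE1. The others stand alone within the family: MIRLET7A2 (chr11:122146522-122146593, intron of MIR100HG), MIRLET7C (chr21:16539828-16539911, exon of MIR99AHG), MIRLET7E (chr19:51692786-51692864, intron of SPACA6), MIRLET7G (chr3:52268278-52268361, intron of WDR82) and MIRLET7I (chr12:62603686-62603769, intron of MIRLET7IHG).

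Depth set the precision of every value. Levels are given in TPM, which here is the reads of an entry divided by all reads assigned to a miRNA entry in that library and scaled to a sum of 1000000, with no correction for length. PC3 cell libraries held 34422 and 97408 miRNA reads, the EV libraries 1982 to 26726, MDA-MB-231 cell replicate 1 held 44370, and MDA-MB-231 cell replicate 2 only 153. In that last library 1 read is worth 6536 TPM and none of the 9 members had a read, which allows a level of up to 19608 TPM each (3 reads), above every family level measured elsewhere. The MDA-MB-231 cell level of the family therefore rests on replicate 1, and each result that involves those cells is given with and without replicate 2. Without it, the lone replicate 1 is assumed to vary like the other groups. Epithelial miRNA markers were sparse in the cells: of 6 (miR-200a, miR-200b, miR-200c, miR-141, miR-429 and miR-205), 3 had an entry, with a sum of 112.9 to 174.3 TPM in PC3 cells and 0 to 135.2 TPM in MDA-MB-231 cells. The blood cell marker miR-486-5p, the single one of 6 with an entry, reached 51.3 to 58.1 TPM in PC3 cells, 0 to 344.5 in PC3 EVs, 0 to 247.9 in MDA-MB-231 cells and 187.1 to 1009.1 in MDA-MB-231 EVs, and its part in the results was not tested. No marker of liver or muscle had an entry.

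The family took a small share of the miRNA reads everywhere. Summed over the 9 members it was 0.537% and 0.565% of miRNA reads in the PC3 cells and 0.586% in MDA-MB-231 cell replicate 1 (exact 95% binomial intervals, which cover counting error only, of 0.463% to 0.620%, 0.519% to 0.614% and 0.517% to 0.661%). PC3 EVs held 0.497% and 0.195% by next-gen ATPS, 0.212% and 0.317% by UC, and 0.538% and 0.319% by exoRNeasy, so 5 of the 6 lay below both PC3 cell libraries and the sixth lay between them. MDA-MB-231 EVs held 0.717% and 0.556% by next-gen ATPS, 0.433% and 0.479% by UC, and 0.921% and 0.555% by exoRNeasy, a range that spans the value of cell replicate 1. In order, and with the MDA-MB-231 cells left aside, the group means ran from MDA-MB-231 exoRNeasy (0.738% ± 0.259, SD, n = 2) through MDA-MB-231 next-gen ATPS, PC3 cells, MDA-MB-231 UC, PC3 exoRNeasy and PC3 next-gen ATPS to PC3 UC (0.265% ± 0.0741, SD, n = 2). Of neighbours in that order, PC3 cells and MDA-MB-231 UC alone had library values that did not overlap.

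Behind these shares stand few reads. The PC3 cells gave 185 and 550 reads of the 9 members and MDA-MB-231 cell replicate 1 gave 260, whereas PC3 EV libraries gave 8 to 46 and MDA-MB-231 EV libraries 11 to 128. All 9 members had at least 1 read in both PC3 cell libraries, 8 in MDA-MB-231 cell replicate 1, 3 to 6 in the PC3 EV libraries and 5 to 9 in the MDA-MB-231 EV libraries.

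**Figure D1:**
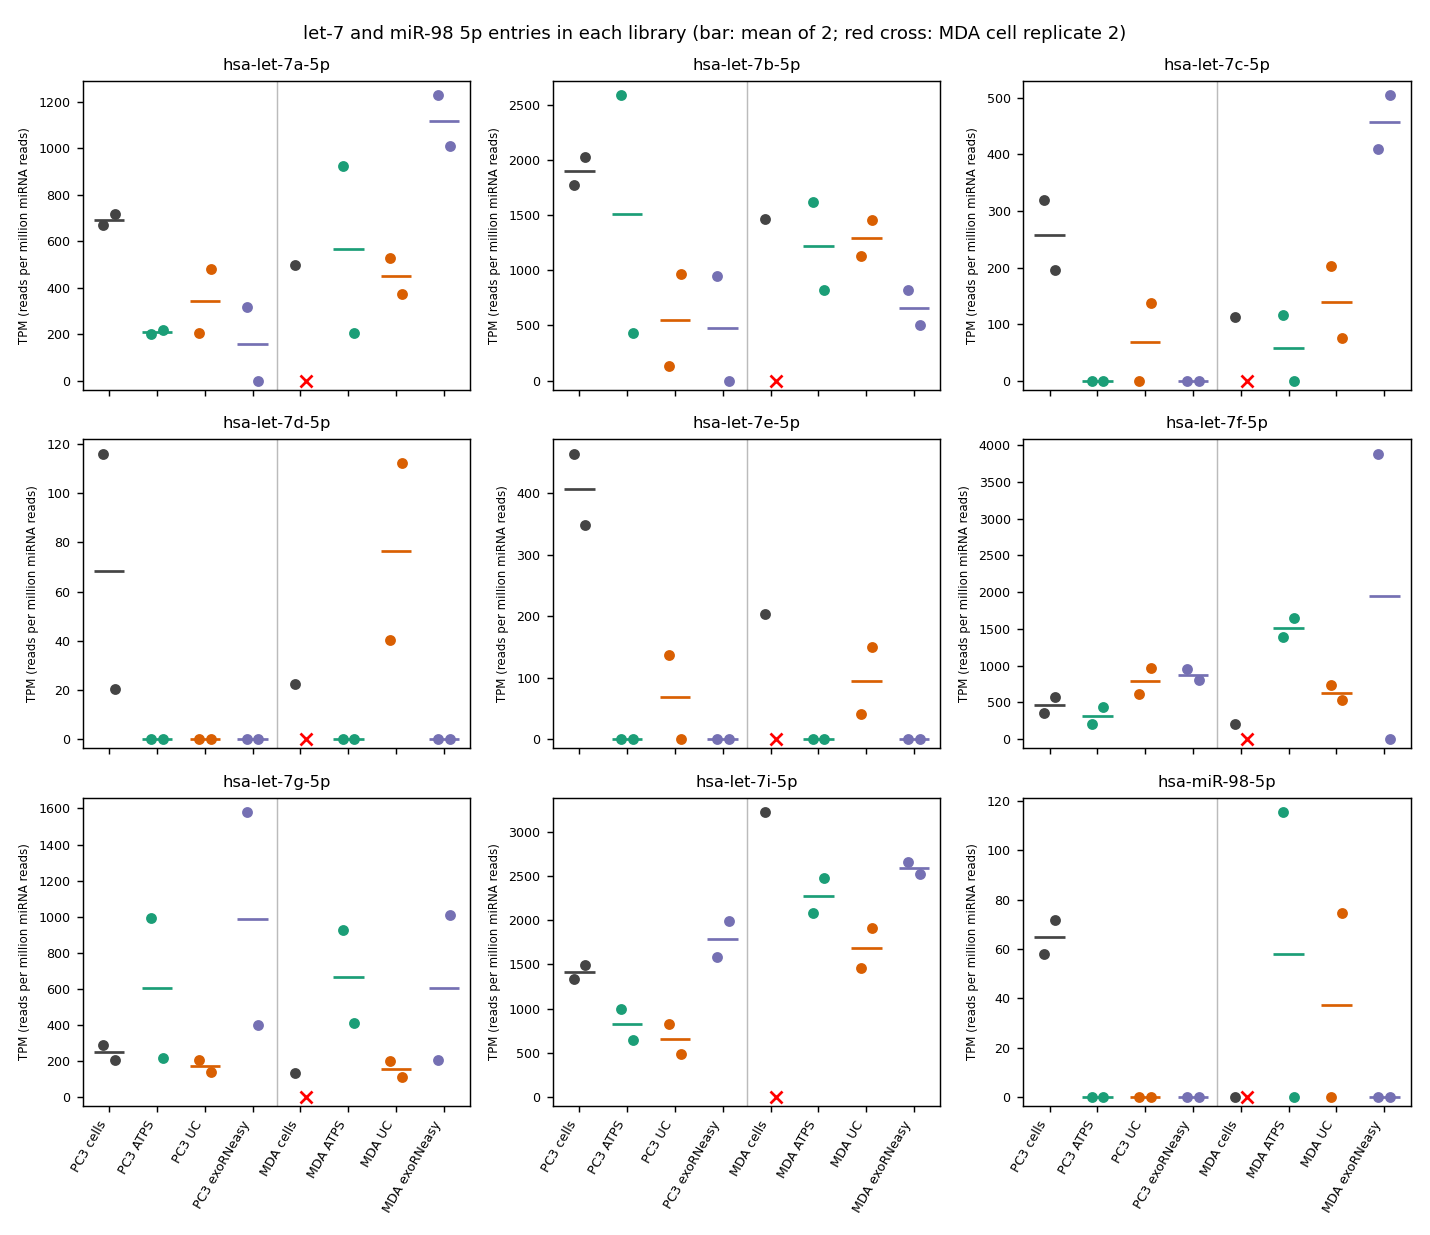
Level of each of the 9 members in every library, in TPM (reads scaled to a sum of 1000000 per library, linear axis that differs between panels), for the 4 groups of PC3 on the left of the grey line and of MDA-MB-231 on the right. Points are single libraries, bars are the mean of 2, and the red cross is MDA-MB-231 cell replicate 2, which had 153 miRNA reads and 0 of every member.

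Let-7b-5p and let-7i-5p were the leading members in the cells of both lines. Let-7b-5p stood at 1772.1 and 2022.4 TPM in the PC3 cells and at 1465 TPM in MDA-MB-231 cell replicate 1. Let-7i-5p stood at 1336.4 and 1488.6 TPM in the PC3 cells and at 3222.9 TPM in MDA-MB-231 cell replicate 1. Their order was thus opposite in the 2 lines: let-7b made up 34.4% ± 2.01 and let-7i 25.6% ± 1.06 (SD, n = 2) of the family's reads in PC3 cells, against 25% and 55% in the single informative MDA-MB-231 cell library. Let-7a-5p followed with 668.2 and 718.6 TPM in PC3 cells and 495.8 TPM in MDA-MB-231 cell replicate 1. The remaining members of the PC3 cells formed a middle group of let-7e, let-7f, let-7c and let-7g, at 195.1 to 574.9 TPM with overlapping library values, and a low pair of let-7d (116.2 and 20.5 TPM) and miR-98 (58.1 and 71.9 TPM). Among the MDA-MB-231 cells, let-7e and let-7f were equal at 202.8 TPM, let-7g, let-7c and let-7d lay at 135.2, 112.7 and 22.5 TPM, and miR-98 had no read, which allows up to 67.6 TPM.

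The make-up of the family differed between cells and EVs for several members, among them let-7f-5p, let-7g-5p, let-7e-5p and, in MDA-MB-231, let-7i-5p. Let-7f-5p took 6.49% and 10.2% of the family's reads in the PC3 cells and 3.46% (exact 95% interval 1.59% to 6.47%) in MDA-MB-231 cell replicate 1. In PC3 EVs its share was 4% and 22.2% by next-gen ATPS, 29.0% and 30.4% by UC and 17.6% and 25% by exoRNeasy. In MDA-MB-231 EVs it was 19.4% and 29.6% by next-gen ATPS, 16.8% and 10.9% by UC, and 42.2% and 0% by exoRNeasy. The share lay above that of the cells of its own line in 5 of 6 EV libraries of each line, and the exceptions were PC3 next-gen ATPS replicate 1 (1 read of 25) and MDA-MB-231 exoRNeasy replicate 2 (0 of 11, an exact upper limit of 28.5%). Let-7i-5p took 55% of the family's reads in MDA-MB-231 cell replicate 1 (exact 95% interval 48.7% to 61.2%) and 28.9% to 45.5% in the MDA-MB-231 EV libraries, below the cell value in 6 of 6. In PC3 its share was 24.9% and 26.4% in cells and 15.2% to 62.5% in EVs, on both sides of the cells. Let-7g-5p took 5.41% and 3.64% in the PC3 cells and 4.35% to 29.4% in PC3 EVs. Its share was 2.31% in MDA-MB-231 cell replicate 1 and 2.22% to 18.2% in the EVs. In each line 5 of 6 EV libraries lay above their cells. Let-7e-5p took 8.65% and 6.18% in the PC3 cells and 0% to 6.45% in PC3 EVs, below both cells in 5 of 6. In MDA-MB-231 it took 3.46% in cell replicate 1 and 0% to 3.125% in EVs, below the cell value in 6 of 6. Only 2 of these 6 had a read of let-7e-5p, and the others had exact upper limits of 5.78% to 28.5%, above the cell value. These shares are a description, without a test.

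**Figure D2:**
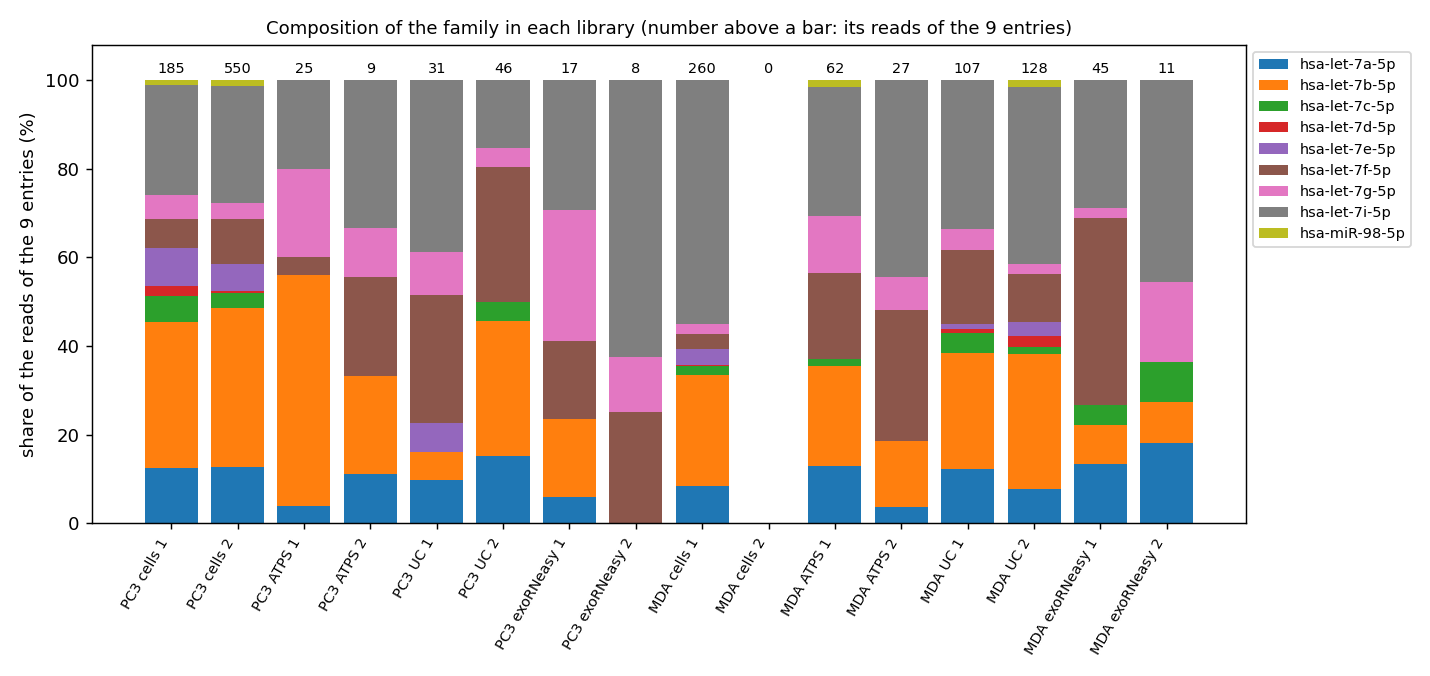
Share of the family's reads taken by each member in each library, in percent, with the number of reads of the 9 members printed above each bar. Let-7b and let-7i fill most of the bars of the cell libraries, and let-7f takes 10.9% to 42.2% of the bar in 5 of 6 MDA-MB-231 EV libraries against 3.46% in cell replicate 1; MDA-MB-231 cell replicate 2 has no bar because it held 0 reads of the family.

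The first comparison asked which members differed between the EVs of PC3 cells, averaged over the 3 methods, and the cells themselves. It was made with limma on log2(TPM + 100) across 566 entries with a value above 0 in at least 2 libraries. An adjusted p (Benjamini-Hochberg, over all 566) under 0.05 was a call, and differences are on that log2 scale, which understates changes of low entries. Of the 9 members 1 was lower in EVs and 0 were higher, beside 9.19% of all entries tested called in either direction (7.77% lower). On the recovered reads of 15 libraries, without MDA-MB-231 cell replicate 2, edgeR's quasi-likelihood test called 2 members beside 11.8% of entries. DESeq2 called 3 beside 41.5% of the entries to which it gave an adjusted p, and its shares below are of such entries. The median difference of the 9 members was −0.72, against −0.05 over all 566 entries, and 7 of 9 members had a negative difference. Among the 207 entries averaging at least 100 TPM, the median was −0.09 in limma, −0.81 in edgeR and −1.42 in DESeq2. Differences of members given by each tool below are therefore to be read beside the median of that tool.

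Let-7e-5p was the member called. It was present at 464.8 and 349 TPM in the PC3 cells (50 reads), at 136.9 TPM in PC3 UC replicate 1 (2 reads) and at 0 in the other 5 PC3 EV libraries. Every EV value thus lay below both cell values, and over the 6 EV libraries 2 reads were seen where 18.1 would have been counted at the mean cell level. The limma difference was −2.12 ± 0.49 (SE; adjusted p = 0.0155). The call was lost when either PC3 cell library was left out (adjusted p = 0.162 without replicate 1 and 0.0638 without replicate 2) and with DESeq2 (adjusted p = 0.149), and edgeR's quasi-likelihood test on the recovered reads made it (adjusted p = 0.00857). In MDA-MB-231 let-7e-5p was also higher in cell replicate 1, at 202.8 TPM (9 reads), than in any EV library (40.4 and 149.7 TPM by UC and 0 in the other 4). The exact 95% upper limits of those 4 were 426.5 to 1859.5 TPM, above the cell value. Over the 6 EV libraries 5 reads were seen where 14.6 would have been counted at the level of cell replicate 1. The limma difference was −1.30 ± 0.54 without cell replicate 2 and −0.50 with it, and it was not called.

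MIRLET7E forms a cluster with the genes of miR-99b and miR-125a, and this cluster can be set beside its member. MiR-125a-5p fell in PC3 EVs, from 2963.2 and 2617.9 TPM in cells to 410.6 and 206.7 TPM by UC and 0 in the other 4 libraries (difference −4.19, limma adjusted p = 0.00235). MiR-99b-5p, at 726.3 and 800.8 TPM in PC3 cells, spanned 0 to 1102.3 TPM in PC3 EVs, and its difference of −0.75 was not called (adjusted p = 0.836). Counted with miR-100-5p, miR-125b-5p and miR-99a-5p, which lie near let-7a-2 or let-7c, 1 of 5 cluster neighbours was lower in PC3 EVs. None was higher, and 9.19% of all entries were called in either direction (7.77% lower). In MDA-MB-231, miR-125a-5p alone of the 5 was called lower in EVs, at −2.95 (limma adjusted p = 0.03), beside 6.18% of all entries in either direction. This call was lost without cell replicate 2, in which 1 read gave miR-125a-5p 6535.9 TPM (−1.87).

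The other low members of the PC3 cells were also sparse in PC3 EVs. Let-7c-5p had 319.6 and 195.1 TPM in cells, 137.8 TPM in UC replicate 2 and 0 in the other 5 EV libraries, or 2 EV reads where 11.4 would have been counted at the mean cell level. Its difference of −1.61 ± 0.53 had an adjusted p of 0.0852 in limma with all libraries and of 0.0466 when MDA-MB-231 cell replicate 2 was left out of the fit, where 13.8% of all entries were called (11.1% lower) and let-7c-5p and let-7e-5p were the members called. Let-7d-5p and miR-98-5p had 0 reads in all 6 PC3 EV libraries. At the 68.4 and 65.0 TPM they averaged in the cells, about 3 reads each would have been counted there, so their absence was not distinguishable from sampling at this depth. The limma differences of −0.69 and −0.72 did not pass (adjusted p = 0.173 and 0.218).

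Let-7b-5p varied widely among the PC3 EV libraries. It reached 2586 and 433.7 TPM by next-gen ATPS, 136.9 and 964.5 TPM by UC, and 948.8 and 0 TPM by exoRNeasy, against 1772.1 and 2022.4 TPM in cells. All EV values but 1 therefore lay below both cells, and that 1 exceeded both. Limma did not call the difference of −1.78 ± 1.12 (adjusted p = 0.468), whereas edgeR on the recovered reads did, with a difference of −1.73 (adjusted p = 0.00988), as did DESeq2 (−2.81, adjusted p = 0.00485).

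Let-7a-5p stood at 198.9 and 216.8 TPM by next-gen ATPS, 205.3 and 482.3 TPM by UC and 316.3 and 0 TPM by exoRNeasy in PC3 EVs. All 6 values were below both cell values of 668.2 and 718.6 TPM. The limma difference of −1.41 ± 0.80 was not called (adjusted p = 0.399), and DESeq2 alone called it (adjusted p = 0.0209).

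Let-7f, let-7g and let-7i were not called by limma and had EV values on both sides of the cells. Let-7f-5p had 198.9 to 964.5 TPM in PC3 EVs against 348.6 and 574.9 in cells, with 4 of the 6 EV values above both cell values, and its difference of 0.34 had an interval of −1.93 to 2.61. Let-7g-5p had 137.8 to 1581.3 TPM in EVs against 205.3 and 290.5 in cells, a difference of 0.61 with an interval of −1.04 to 2.25. Let-7i-5p had 482.3 to 1993.6 TPM in EVs against 1336.4 and 1488.6 in cells, a difference of −0.49 with an interval of −2.52 to 1.54, and DESeq2 called it lower (−2.01, adjusted p = 0.00485). These 95% intervals from limma leave room for changes of several fold either way, so no equality can be read from them.

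**Figure D3:**
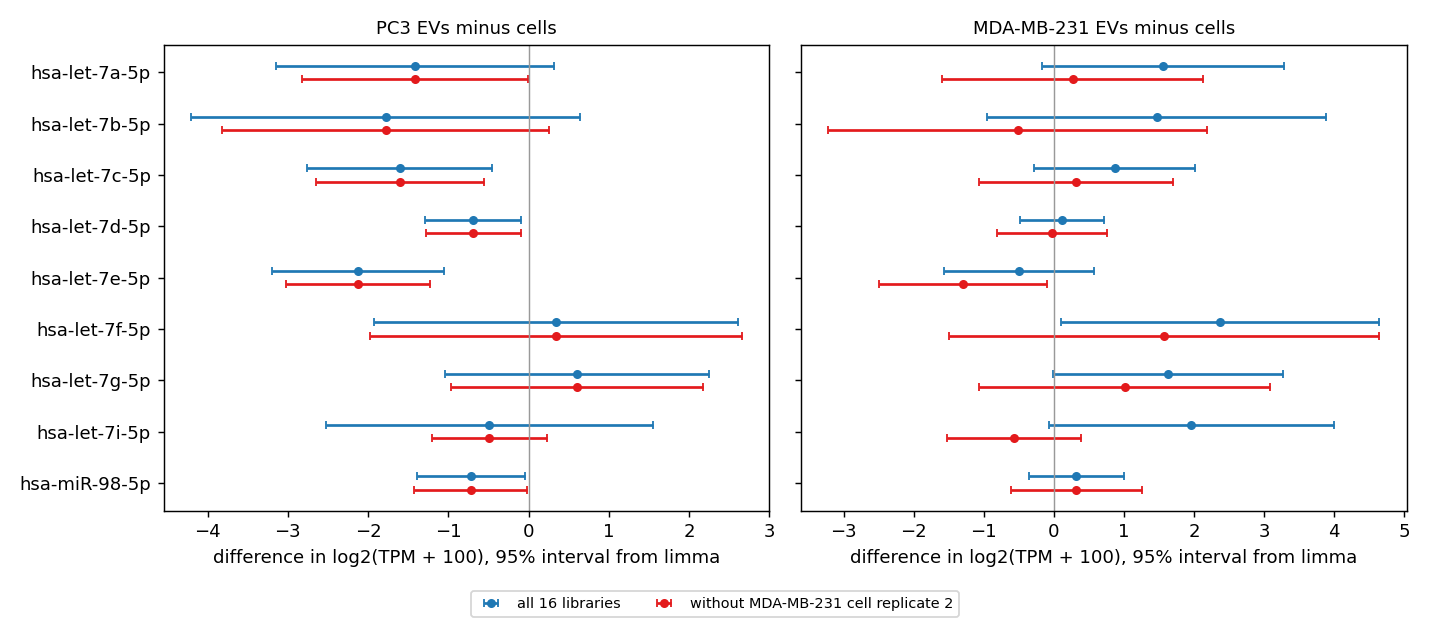
Difference between EVs of all 3 methods and cells for each member in log2(TPM + 100), with its 95% interval from limma, for PC3 (left) and MDA-MB-231 (right). Blue points use all 16 libraries and red points leave out MDA-MB-231 cell replicate 2; in PC3 the let-7e interval lies below 0 in both, and in MDA-MB-231 the let-7i difference moves from 1.96 to −0.57.

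The same comparison was made in MDA-MB-231, where it depended on cell replicate 2. With all 16 libraries 0 of 9 members were called, beside 6.18% of all entries, and 1 member had an unadjusted p under 0.05. Without replicate 2, limma called 0 of 9 beside 8.3% of all entries, edgeR 1 beside 10.1% and DESeq2 0 beside 24.4%. The median difference of the members was 1.46 with replicate 2 and 0.27 without it, against 0.12 and −0.00 over all entries. With replicate 2, 8 members had a positive difference and 1 a negative one. Without it 5 were positive and 4 negative, so the members had no common direction once the library with 153 reads was left out.

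Let-7f-5p was the member higher in MDA-MB-231 EVs by edgeR. It had 202.8 TPM (9 reads) in cell replicate 1, against 1387.6 and 1647.8 TPM by next-gen ATPS, 727.9 and 523.8 TPM by UC, and 3888.7 and 0 TPM by exoRNeasy. The EV values were above the cell value in 5 of 6 libraries and the other had no read. The edgeR difference, fitted without cell replicate 2, was 2.71 (adjusted p = 0.0312). In limma the difference was 2.37 with all libraries (adjusted p = 0.305) and 1.57 without cell replicate 2, and neither was called. It was 3.26 when the exoRNeasy library without a read was left out, a fit that kept cell replicate 2. No limma fit left out both of these libraries.

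Let-7i-5p, the leading member of MDA-MB-231 cells, had 2081.4 and 2471.7 TPM by next-gen ATPS, 1455.7 and 1908.3 TPM by UC, and 2660.7 and 2522.7 TPM by exoRNeasy. All 6 EV values lay below the 3222.9 TPM of cell replicate 1. The limma difference of 1.96 with all libraries (adjusted p = 0.348) turned to −0.57 without cell replicate 2 (adjusted p = 0.665), and neither was called. Let-7b-5p, at 504.5 to 1618.9 TPM in EVs against 1465 in cell replicate 1, likewise went from 1.46 to −0.52. The let-7a-5p levels of 206 to 1228 TPM and the let-7g-5p levels of 112.3 to 1009.1 TPM spanned their cell values of 495.8 and 135.2 TPM.

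Whether EVs departed from cells differently in the 2 lines was tested directly. No member passed with all 16 libraries, beside 1.24% of all entries, and 4 of 9 had an unadjusted p under 0.05. Without MDA-MB-231 cell replicate 2, 0 of 9 passed beside 0.353% of all entries and 1 had an unadjusted p under 0.05, and edgeR and DESeq2 called 0 each, beside 0.53% and 0.353%. The difference furthest from 0 was that of let-7b-5p with all libraries (3.25, adjusted p = 0.517, and 1.26 without cell replicate 2) and that of let-7c-5p without cell replicate 2 (1.93, adjusted p = 0.409, and 2.47 with it, adjusted p = 0.185).

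The next comparison set the 2 lines against each other. In cells, 0 of 9 members were called with all libraries (beside 4.77% of all entries) or without MDA-MB-231 cell replicate 2 (beside 3.89%), with 1 member at an unadjusted p under 0.05 in either fit. On the recovered reads edgeR and DESeq2 called 0, beside 7.6% and 14.5%. Let-7i-5p was that member without replicate 2, at 1.14 higher in MDA-MB-231 (95% interval 0.06 to 2.22, adjusted p = 0.299), and the same difference read −1.39 with replicate 2.

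In EVs the line difference rests on 6 libraries of each line and involves no cell library. With all 16 libraries 0 of 9 members passed, beside 11.5% of all entries, with 2 members at an unadjusted p under 0.05. On the recovered reads of 15 libraries edgeR and DESeq2 called 0, beside 9.54% and 16.4%. Leaving MDA-MB-231 cell replicate 2 out of the fit left the EV values as they were and narrowed the standard errors. Then 2 of 9 members were higher in MDA-MB-231 EVs and 0 lower, beside 14.3% of all entries (9.54% higher).

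Let-7i-5p was 1 of these. Its 6 MDA-MB-231 EV values were 1455.7 to 2660.7 TPM (median 2276.6) and its 6 PC3 values 482.3 to 1993.6 TPM (median 907.9), and the ranges overlapped through the PC3 exoRNeasy libraries (1581.3 and 1993.6 TPM). Within each method both MDA-MB-231 values exceeded both PC3 values. The difference was 1.06 ± 0.23 (SE; adjusted p = 0.0105 without MDA-MB-231 cell replicate 2) and 1.06 ± 0.67 with it (adjusted p = 0.387). The value in cell replicate 1 of MDA-MB-231 exceeded both PC3 cell values as well.

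Let-7c-5p was the other. It had reads in 5 of 6 MDA-MB-231 EV libraries, at 74.8 to 504.5 TPM, and in 1 of 6 PC3 EV libraries. These were 11 reads among 71827 miRNA reads in MDA-MB-231 EVs and 2 among 44436 in PC3 EVs. The value of 504.5 TPM was 1 read. In the PC3 EV libraries without a read the exact 95% upper limits were 252.4 to 1469.8 TPM. The difference of 1.20 had an adjusted p of 0.035 without MDA-MB-231 cell replicate 2 and 0.0576 with it. Let-7a-5p was also higher on average in MDA-MB-231 EVs, by 1.27 ± 0.57, and did not pass (adjusted p = 0.209).

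Isolation methods were compared over both lines. Per the study's methods, they also differed in how RNA was extracted. UC EVs, like the cells, were extracted with the phenol-based reagent TRIzol. Next-gen ATPS EVs were first treated with dextranase, which degrades dextran, and then extracted with TRIzol. The exoRNeasy kit used its own column. Isolation and RNA extraction cannot be told apart in these comparisons. No member was called between next-gen ATPS and UC (beside 0.177% of all entries, with and without MDA-MB-231 cell replicate 2), next-gen ATPS and exoRNeasy (4.42%, and 6.01% without that library), or UC and exoRNeasy (8.3%) with all libraries. At an unadjusted p under 0.05 there were 0, 0 and 1 members, and edgeR and DESeq2, without MDA-MB-231 cell replicate 2, called 0 in each. Of the entries with an adjusted p edgeR called 2.65%, 2.3% and 5.65%, and DESeq2 25.9%, 11.4% and 28.6%, in that order. Without MDA-MB-231 cell replicate 2 the last comparison gave 1 call, lower by UC, beside 13.1% of all entries (6.54% lower).

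That call was let-7i-5p. By UC it had 821.2 and 482.3 TPM in PC3 and 1455.7 and 1908.3 TPM in MDA-MB-231, and by exoRNeasy 1581.3 and 1993.6 TPM in PC3 and 2660.7 and 2522.7 TPM in MDA-MB-231. Within each line both UC values lay below both exoRNeasy values. The difference was −0.98 ± 0.28 (SE; adjusted p = 0.0434) without that library and −0.98 ± 0.81 with it (adjusted p = 0.499), and DESeq2 on the recovered reads gave 0.64 (adjusted p = 0.439). DESeq2 placed the median of the 207 entries that averaged at least 100 TPM at 1.13 in this comparison, against 0.015 in limma, so relative to that median let-7i-5p was lower in both.

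Reads were also assigned to the hairpins of the family. The table holds 12 such entries, named for the precursor and not for an arm, and how reads were divided between a hairpin and its mature entries is not given in the sources used here. All reads were 18 to 35 bases long, so these are fragments and not whole precursors. The 12 hairpin entries summed to 0.593% and 0.601% of miRNA reads in PC3 cells, about level with the mature members. In PC3 EVs they were above the mature sum in every library, at 1.29% and 1.17% by next-gen ATPS, 1.62% and 1.41% by UC, and 0.949% and 1.20% by exoRNeasy.

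The ratio of hairpin to mature reads was thus 1.10 and 1.06 in PC3 cells and 1.76 to 7.65 in PC3 EVs, without overlap. It was 0.254 in MDA-MB-231 cell replicate 1 (66 hairpin and 260 mature reads) and 0.677 to 1.55 in MDA-MB-231 EVs. In both lines every EV library was above its cells, and every PC3 library was above MDA-MB-231 cell replicate 1. The share of all miRNA reads that fell on mature entries did not move in parallel, being 54% to 55% in PC3 cells, 71% to 82% in PC3 EVs, 74% in MDA-MB-231 cell replicate 1 and 36% to 60% in MDA-MB-231 EVs. No test was made of the ratio, because it is a score over the members.

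**Figure D4:**
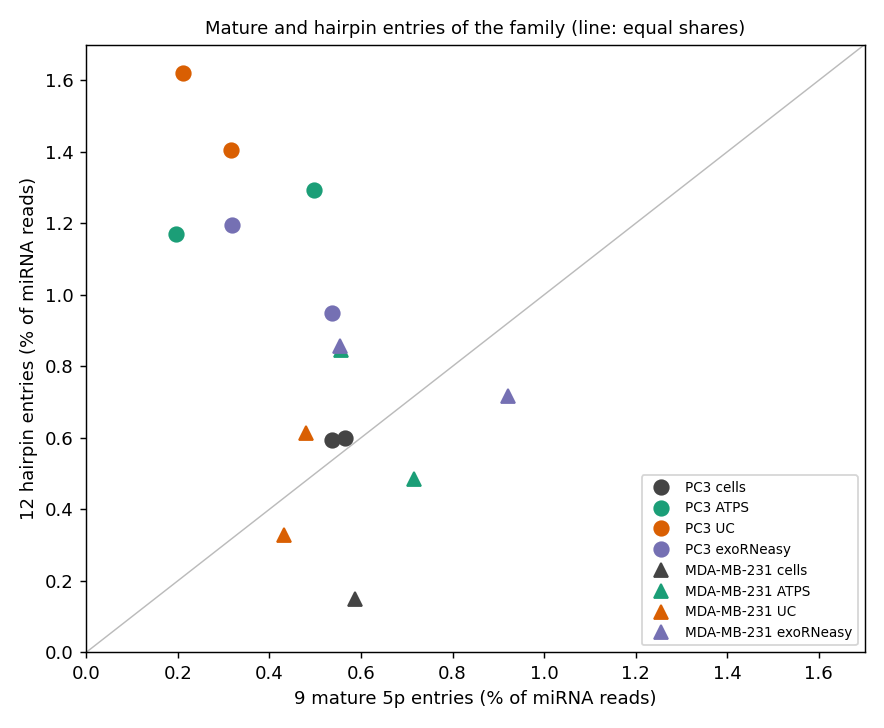
Summed share of the 12 hairpin entries against that of the 9 mature members, both in percent of miRNA reads, 1 point per library (circles PC3, triangles MDA-MB-231, colour by material). The 6 PC3 EV libraries lie above the line of equal shares, MDA-MB-231 cell replicate 1 lies below it at 0.149% hairpin and 0.586% mature, and MDA-MB-231 cell replicate 2 (0 reads) is not drawn.

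A few hairpins carried most of these reads. The let-7a-3 entry, from MIRLET7A3, held 34.7% to 35.3% of the hairpin reads in PC3 cells and 58.2% to 59.8% in PC3 EVs isolated by UC, 47.7% to 51.9% by next-gen ATPS and 13.3% to 30% by exoRNeasy, where the let-7i entry held 56.7% and 60%. Its sequence is shown beside the other let-7a hairpins (RefSeq, GRCh38.p14), with the shared mature arm in capitals, since reads of that arm cannot separate the 3 genes.

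hsa-let-7a-1: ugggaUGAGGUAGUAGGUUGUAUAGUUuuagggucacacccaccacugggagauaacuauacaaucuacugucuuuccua
hsa-let-7a-2: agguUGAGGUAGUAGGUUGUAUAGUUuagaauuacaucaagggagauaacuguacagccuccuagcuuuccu
hsa-let-7a-3: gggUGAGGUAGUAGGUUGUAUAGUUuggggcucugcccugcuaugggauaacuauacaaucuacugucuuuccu

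The let-7a-3 entry stood at 2091.7 and 2084 TPM in PC3 cells and at 225.4 TPM (10 reads) in MDA-MB-231 cell replicate 1. PC3 EVs reached 6166.7 and 6071.1 TPM by next-gen ATPS, 9444.3 and 8405.1 TPM by UC, and 2846.3 and 1594.9 TPM by exoRNeasy. MDA-MB-231 EVs reached 462.5 and 1235.8 TPM by next-gen ATPS, 606.6 and 1945.7 TPM by UC, and 1023.3 and 2018.2 TPM by exoRNeasy. Next-gen ATPS and UC libraries of PC3 thus stood apart from every other library, and neither the let-7a-1 nor the let-7a-2 entry exceeded 19 reads in any library.

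In EVs the let-7a-3 hairpin was lower in MDA-MB-231 than in PC3 by −2.09 ± 0.44 on the log2 scale (SE, limma adjusted p = 0.00765). It was the single call among the 12 hairpins, beside 11.5% of all entries tested. The adjusted p was 0.00184 without MDA-MB-231 cell replicate 2, and it rose to 0.270 and 0.0740 with pseudocounts of 1 and 10 TPM, while edgeR (−2.35, adjusted p = 2.37e-08) and DESeq2 (−2.13, adjusted p = 3.41e-05) made the call. In cells it was lower in MDA-MB-231 by −3.60 (adjusted p = 0.0131), and by −2.75 without cell replicate 2 (adjusted p = 0.0719), and edgeR (−3.82, adjusted p = 3.34e-05) and DESeq2 (−3.57, adjusted p = 0.000861), both without that library, called it. The mature let-7a-5p, to which 3 hairpins contribute, was not called between the lines in cells (−1.70, adjusted p = 0.576, and −0.41 without cell replicate 2) or in EVs, where its difference of 1.27 had the opposite sign. Against cells, the let-7a-3 hairpin was higher in MDA-MB-231 EVs by 2.70 with all libraries (adjusted p = 0.0181) and by 1.85 without cell replicate 2 (adjusted p = 0.125), where edgeR called it (2.31, adjusted p = 0.0193) and DESeq2 did not (adjusted p = 0.321), and the PC3 difference of 1.19 was not called (adjusted p = 0.34).

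The let-7f-1 hairpin, from the gene next to MIRLET7A1 on chromosome 9, was the clearest hairpin difference between MDA-MB-231 EVs and cells. It had 270.5 TPM (12 reads) in cell replicate 1, against 1040.7 and 1235.8 TPM by next-gen ATPS, 1941 and 2132.8 TPM by UC, and 2865.3 and 2018.2 TPM by exoRNeasy, so all 6 EV values were above it. The difference was 3.28 ± 0.59 with all libraries (limma adjusted p = 0.00319) and 2.34 ± 0.50 without cell replicate 2 (adjusted p = 0.0143), and DESeq2 did not call it (1.66, adjusted p = 0.169). In PC3 the same entry had 1103.9 and 1427 TPM in cells and 948.8 to 2600.6 TPM in EVs, a difference of 0.61 that was not called (adjusted p = 0.772). The mature let-7f-5p, which MIRLET7F1 and MIRLET7F2 both encode, was called higher in the EVs of the same line by edgeR and not by limma, as given above. The lower let-7f-1 level in MDA-MB-231 than in PC3 cells (−2.82, adjusted p = 0.0378) was lost without MDA-MB-231 cell replicate 2 (−1.87, adjusted p = 0.109). It was also lost with pseudocounts of 1, 10 or 1000 TPM, without the filter, with quantile normalization and with a replicate block (adjusted p = 0.0549 to 0.147), and it was made by edgeR (adjusted p = 0.00651) and DESeq2 (adjusted p = 0.0419).

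The let-7i hairpin separated UC from exoRNeasy. By UC it had 821.2 and 551.2 TPM in PC3 and 202.2 and 336.8 TPM in MDA-MB-231, and by exoRNeasy 5376.3 and 7177 TPM in PC3 and 1432.7 and 4540.9 TPM in MDA-MB-231. The groups did not overlap in either line or across lines. The difference was −2.95 ± 0.62 (SE, limma adjusted p = 0.0136). It was the single limma call among the 12 hairpins in this comparison with all libraries, beside 8.3% of all entries tested. Called as higher by UC were let-7f-2 by limma without MDA-MB-231 cell replicate 2 (1.86) and let-7a-3 by edgeR (1.71) and DESeq2 (2.63). DESeq2 also called let-7f-1 higher (1.82). In MDA-MB-231, however, the let-7a-3 and let-7f-1 means were lower by UC (1276 and 2037 TPM) than by exoRNeasy (1521 and 2442 TPM). The median of the 207 entries averaging at least 100 TPM was 0.73 in edgeR and 1.13 in DESeq2 in this comparison. The let-7i hairpin was not called with pseudocounts of 1 or 10 TPM (adjusted p = 0.229 and 0.0729) or with DESeq2 (adjusted p = 0.0601). Next-gen ATPS lay between the 2 in PC3, at 1790.3 and 1734.6 TPM. In MDA-MB-231 its values of 925.1 and 2883.6 TPM lay above UC and overlapped those of exoRNeasy. Its difference from UC of 1.77 was not called by limma (adjusted p = 0.312), and with all libraries limma called no hairpin between next-gen ATPS and either other method. DESeq2 did call hairpins of the family between next-gen ATPS and UC. Between next-gen ATPS and exoRNeasy limma called 1 hairpin with a mean of at least 100 TPM, beside 11.1% of entries. It also made a hairpin call there, higher by next-gen ATPS, without MDA-MB-231 cell replicate 2. The mature let-7i-5p also had lower values by UC than by exoRNeasy in each line, with a limma difference of −0.98.

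**Figure D5:**
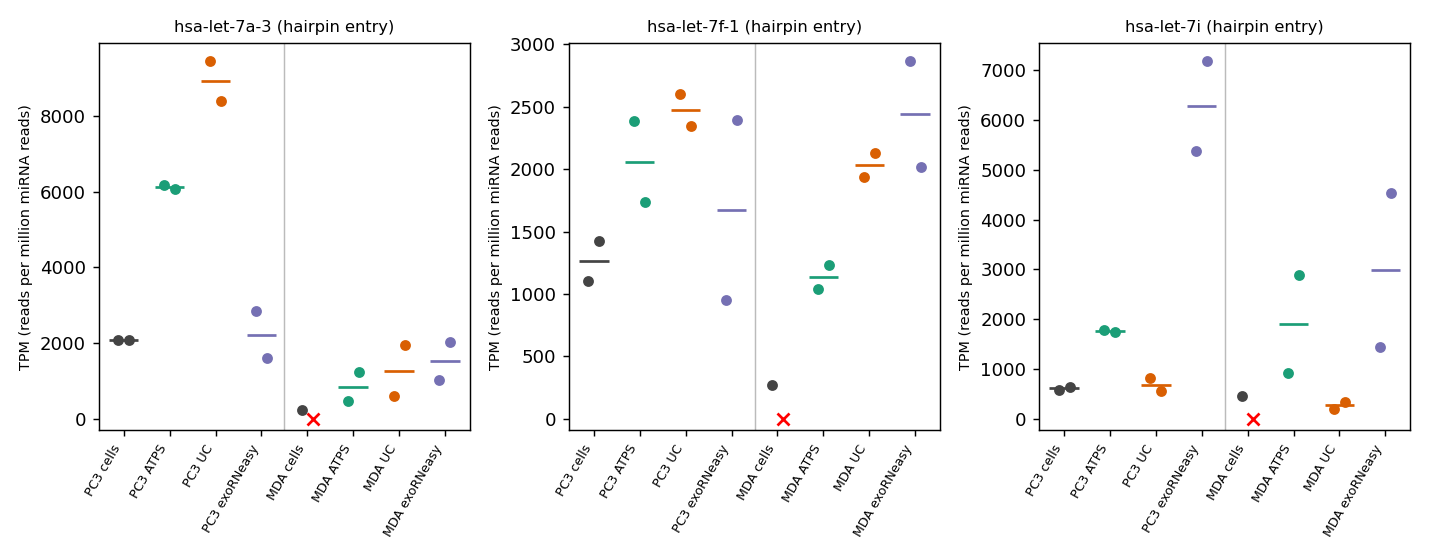
Level of the let-7a-3, let-7f-1 and let-7i hairpin entries in each library, in TPM (linear axis that differs between panels), with PC3 groups left of the grey line and MDA-MB-231 groups right of it. Points are libraries, bars are means of 2 and the red cross is MDA-MB-231 cell replicate 2 (0 reads); let-7a-3 stands highest in PC3 EVs isolated by next-gen ATPS and UC, and let-7i highest by exoRNeasy in PC3.

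The passenger strands were almost unseen. The table holds 6 entries for 3p arms of the family, and none had more than 3 reads in any library. Of 4 that could be tested, 0 were called with all libraries in any of the 8 comparisons, beside 0.177% to 11.5% of all entries. The fit without MDA-MB-231 cell replicate 2 did call 3p arms, as lower in PC3 EVs than in cells and as higher by UC than by exoRNeasy. Such calls rest on very few reads.

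Among the other mature entries, hsa-miR-23a-3p, hsa-miR-378a-3p and hsa-miR-423-3p had the pattern most like that of the summed family. Likeness was the root mean square difference of log2(TPM + 100) means over the 8 groups, each centred on its own mean, among 40 entries that averaged at least 1000 TPM, and it came to 0.78, 0.91 and 1.04. This order rests on MDA-MB-231 cell replicate 2, where each of these had 0 reads as the family did. Without that library the nearest were hsa-miR-221-3p (0.62), hsa-miR-151a-3p (0.73) and hsa-miR-30e-5p (0.73), which had ranked at 12, 13 and 15 with it.

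Large entries moved the denominator of every TPM value. The hairpin entry hsa-mir-1291 took 28.6% ± 0.765 of miRNA reads in PC3 cells and 1.85% to 2.82% in PC3 EV groups, hsa-miR-182-5p took 9.71% ± 0.696 in PC3 cells and 48.4% to 55.6% in PC3 EV groups, and hsa-mir-7641-2 took 17.4% to 41.1% in MDA-MB-231 EV groups against 0.311% in cell replicate 1 (0.482% ± 0.242 with replicate 2, SD, n = 2). When shares were taken of mature reads only, the family made up 1.01% in PC3 cells and 0.370% to 0.529% in PC3 EV groups, and 1.02% to 1.63% in MDA-MB-231 EV groups against 0.788% in MDA-MB-231 cell replicate 1. Each of the 6 MDA-MB-231 EV libraries (0.917% to 1.98%) was above that cell library on this denominator, whereas on all miRNA reads the EV libraries lay on both sides of it. Fewer cells or vesicles giving a miRNA and less of it in each cannot be told apart in such bulk libraries.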

How the data were processed

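Small RNA libraries of cells and EVs were sequenced from 2 libraries in each of 8 groups. Per the study's methods, the authors kept reads of 18 to 35 bases with quality of at least 20 over a window of 4 bases, aligned them to hg38 with STAR (version not given in the sources used here), annotated them with COMPSRA, weighted multimapping reads towards unique ones, and deposited values named TPM. These deposited values are CPM: each library summed to 1000000 over miRNA entries with no length correction. Whole reads were recovered from them for 15 libraries (100% of values whole within 0.1 read), holding 1982 to 97408 reads. MDA-MB-231 cell replicate 2 held 153. The circRNA and snoRNA tables were not used here.

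Group means were compared over all 16 libraries with limma 3.58.1 (R 4.3.3; trend and robust) on log2(TPM + 100), a pseudocount chosen because 1 read is worth 10.3 to 6536 TPM, for 566 of 915 entries above 0 in at least 2 libraries, with Benjamini-Hochberg adjustment. The study states no model for these data. Alternatives were pseudocounts of 1, 10 and 1000 TPM, no filter, a mean of at least 100 TPM, mature entries only in the denominator, quantile normalization, a replicate block, leaving out each library, and edgeR 4.0.16 and DESeq2 1.42.0 on the recovered reads of 15 libraries. Scripts were tested on simulated data. The text names all 9 members, the other entries of the family, 5 cluster neighbours, and the 3 mature entries most like the family. The members and lists were chosen with earlier results of these data known.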

Additional observations from a re-analysis of the deposited data

Results flagged for a closer look

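Let-7f-5p moved in opposite directions between next-gen ATPS and UC in the 2 lines. In PC3 both next-gen ATPS values (198.9 and 433.7 TPM) were below both UC values (615.9 and 964.5 TPM), and in MDA-MB-231 both next-gen ATPS values (1387.6 and 1647.8 TPM) were above both UC values (727.9 and 523.8 TPM). The mean difference between the methods in MDA-MB-231 exceeded that in PC3 by 1366 TPM. The difference between the lines was not tested, and the PC3 next-gen ATPS values stand for 1 and 2 reads.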

How the results depend on the processing

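Of the counts of members called under the alternatives, 186 stayed within 1.5 times the count reported and 22 did not. Counts of hairpin entries called stayed so in 159 and did not in 41. In PC3 EVs against cells, 1 member called became 2 with a pseudocount of 1 TPM (let-7d and let-7e), 2 with mature entries only in the denominator (let-7c and let-7e), 2 with edgeR (let-7b and let-7e), 3 with DESeq2 (let-7a, let-7b and let-7i) and 0 with a mean of at least 100 TPM, where let-7e was not tested, and 0 to 2 with 1 library left out. Of the entries with an adjusted p these 5 settings called 8.83%, 14.8%, 11.8%, 41.5% and 15%. In MDA-MB-231 EVs against cells, 0 became 1 with edgeR and 0 to 1 with 1 library left out. Between lines in EVs, 0 became 1 (let-7c) with a mean of at least 100 TPM and with mature entries only (32.9% and 17.4% of all entries), and 0 to 2 with 1 library left out. With 1 library left out the difference between lines in EVs against cells gave 0 to 4, the lines in cells 0 to 2 and UC against exoRNeasy 0 to 1, the upper values of the former 2 coming without MDA-MB-231 cell replicate 1, which leaves the shallow replicate 2 alone, and that of the latter without replicate 2.

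Among the differences named in the report, directions turned for 5 members, and the cause was not tested. In PC3 EVs against cells, let-7f-5p read −0.077 with mature entries only, −0.12 with edgeR and −1.17 with DESeq2 (reported 0.34), and let-7g-5p −0.47 with DESeq2 (reported 0.61). DESeq2 placed the median of the 207 entries averaging at least 100 TPM at −1.42 in that comparison, against −0.09 in limma. In MDA-MB-231 EVs against cells, let-7i-5p read −0.53 with edgeR and −1.67 with DESeq2 (−0.57 to 4.49 with 1 library left out), let-7b-5p −0.39 and −1.54 (−0.52 to 3.45) and let-7e-5p −1.30 to 0.30 with 1 library left out. Both tools leave out MDA-MB-231 cell replicate 2 by construction, and let-7d-5p, not named for this comparison, went from 0.12 to −0.030 without it. For MDA-MB-231 against PC3 cells let-7i-5p read 0.52 and 0.81 (−3.92 to 1.14 with 1 library left out), and for UC against exoRNeasy 0.64 with DESeq2.

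The summed share, with mature entries only in the denominator, was 1.01% in PC3 cells, 0.370% in PC3 UC, and 1.63%, 1.02% and 1.30% in MDA-MB-231 next-gen ATPS, UC and exoRNeasy. With 3p arms and hairpins added it was 1.16% in PC3 cells, 1.58%, 1.78% and 1.52% in PC3 next-gen ATPS, UC and exoRNeasy, and 1.32%, 0.936% and 1.53% in those of MDA-MB-231.

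Labels number the 2 libraries of each group, and the deviations gave no sign that the numbers pair them. Over 28 pairs of groups they correlated at −0.136 to 0.102, with 1 over 0.1. At few reads per entry this check cannot show whether libraries were paired. With a replicate block the member counts stayed at 1 in PC3 EVs against cells (let-7e-5p, adjusted p = 0.0182) and 0 elsewhere, and the let-7f-1 hairpin call in cells was lost (adjusted p = 0.0549). Entries averaging under 100 TPM are seen mainly in the deep cell libraries and can be called lower in EVs for lack of depth, which touches let-7d, let-7e and miR-98.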
